A study of Homo sapiens with 16 samples.

Results

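The signal recognition particle (SRP) is described here through 8 of the 28207 human genes in the count tables. These are the RNA genes RN7SL1 and RN7SL2 and the protein genes SRP9, SRP14, SRP19, SRP54, SRP68 and SRP72. They were chosen by gene symbol, after earlier results on these libraries had shown that RN7SL1 differed between the arms. The levels of both RNA genes are therefore given as a description with no test, and only the protein genes are tested. Total RNA from U2OS, a human osteosarcoma cell line, was sequenced in 16 libraries. Their genotype labels combine 1 of 4 numbers with 1 of the arms CL and CC, and 2 replicates stand in each of the 8 groups zdna1_CL, zdna1_CC, zdna2_CL, zdna2_CC, zdna3_CL, zdna3_CC, zdna4_CL and zdna4_CC. What the numbers and arms stand for is not given there, no treatment, promoter or clone is named, and nothing shows that replicates came from separate cultures, so each p-value may measure technical spread alone. The reference of each library holds 1 extra contig that belongs to its number, and the series title names MYC, the histone chaperone FACT and Z-DNA. Differences are given as CL over CC.

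The signal recognition particle binds ribosomes whose nascent chain carries a signal sequence, slows elongation and docks them at the endoplasmic reticulum. Its scaffold is 7SL RNA, which RNA polymerase III makes, and its proteins are translated from ordinary mRNAs. The ends of 7SL RNA fold into the Alu domain, which holds SRP9 and SRP14, and its middle folds into the S domain, which holds SRP19, SRP54, SRP68 and SRP72. Alu repeats descend from this RNA.

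RN7SL1 lies on hg19 chromosome 14 from 50053298 to 50053596, plus strand, within the span of RPS29 on the opposite strand but over none of its exons. RN7SL2 lies on the minus strand at 50329269 to 50329567, and another copy, RN7SL3, lies beside it at 50320334 to 50320632. RN7SL3 is no member, but reads can be shared with it, so it is shown too. The copies are near-identical in sequence. A read inside a stretch they share cannot be given to 1 copy by unique alignment, so a count of a copy can rest on the few positions at which it differs, and a read error there can move a read between copies.

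Depth was 39335 to 310187 reads on human genes per library, so 1 read was worth 3.22 to 25.4 CPM before TMM scaling, where CPM are reads relative to each library's human-gene total and, from here on, also scaled by TMM factors. The libraries of zdna4_CC were the shallowest. There, 401 olfactory receptor genes, which stand for reads outside expressed genes, summed to 1449 and 1492 CPM before TMM scaling, against 55.3 to 396 CPM in the other 14 libraries. The contig took 0.403% and 0.326% of assigned reads in zdna1_CL against 27.3% and 25.7% in zdna1_CC, and 20.8% and 21.6% in zdna3_CL against 87.7% and 87.4% in zdna3_CC. It took 60.0% and 61.1% in zdna2_CL against 63.4% and 64.3% in zdna2_CC, and 1.40% and 1.28% in zdna4_CL against 17.8% and 13.8% in zdna4_CC. The part of any of these in the values that follow was not tested. Of 8 mesenchymal and bone markers, 7 had reads, and their sum was 3218 to 4826 CPM in CL libraries and 2779 to 3644 CPM in CC libraries. It was led by VIM, COL1A1 and SPARC, while the bone marker BGLAP had 0 reads in all 16. Of the 8, 4 averaged 50 CPM or more. RUNX2 had 55 reads over all 16 libraries. COL1A2 had 10 and ALPL 15, about as few as the 14 of the epithelial marker EPCAM. The sums of 3 epithelial, 4 blood and 2 endothelial markers reached at most 81.0, 35.7 and 47.6 CPM, with CD3E and HBB at 0.

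RN7SL1 was higher in CL than in CC in zdna1 and zdna2 and lower in zdna3. In zdna1 it stood at 9818 and 10393 CPM in the CL libraries and at 4495 and 4739 CPM in the CC libraries. No CC library came near a CL library, and the log2 difference of CL over CC was 1.13 (SE 0.0659, a fold of 2.19). In zdna2 the CL libraries held 5152 and 5364 CPM and the CC libraries 3959 and 3506 CPM. The arms did not overlap here either, at a log2 difference of 0.50 (SE 0.0668, a fold of 1.41). In zdna3 the order was the opposite, with 6285 and 5998 CPM in CL against 7900 and 9763 CPM in CC. Both CL libraries lay below both CC libraries, at a log2 difference of -0.52 (SE 0.107, a fold of 0.699). In zdna4 the levels were 6872 and 7653 CPM in CL and 8446 and 7897 CPM in CC. The arms stood apart by little, and the interval of the difference of -0.17 ran from -0.38 to 0.04. Over the 4 genotypes the mean log2 difference was 0.23 (SE 0.0444), a mean of unlike values. A level in CPM is a share of a bulk library, so fewer cells with the RNA and less RNA per cell cannot be told apart.

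**Figure D1:**
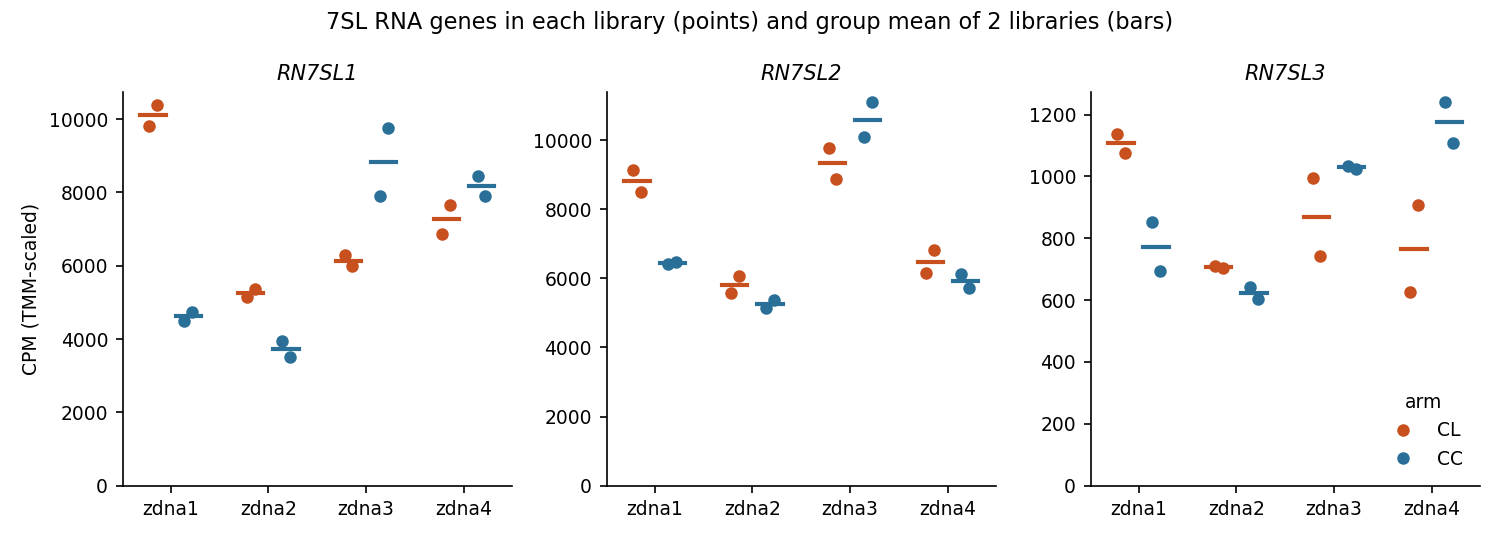
Level of RN7SL1, RN7SL2 and RN7SL3 in CPM (vertical axis, linear, from 0) by genotype and arm, CL left of CC. Points are libraries and bars are means of 2 libraries; RN7SL1 reached 10393 CPM in zdna1_CL and was lowest, at 3506 CPM, in zdna2_CC.

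RN7SL2 followed the same directions in zdna1, zdna2 and zdna3 at smaller sizes. It held 9134 and 8486 CPM in zdna1_CL against 6410 and 6484 CPM in zdna1_CC, a log2 difference of 0.45 (SE 0.0622). It held 5577 and 6063 CPM in zdna2_CL against 5143 and 5386 CPM in zdna2_CC, a log2 difference of 0.14 (SE 0.0631). The arms stood apart widely in zdna1 and narrowly in zdna2. In zdna3 the CL libraries had 9772 and 8881 CPM and the CC libraries 10093 and 11097 CPM, a log2 difference of -0.18 (SE 0.101). In zdna4 they had 6142 and 6823 CPM in CL and 6126 and 5731 CPM in CC, a log2 difference of 0.13 (SE 0.101). The closest CL and CC libraries of zdna4 were nearly level, and the intervals of both differences included 0. RN7SL2 thus lay slightly higher in zdna4_CL where RN7SL1 lay lower.

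RN7SL3 was counted at a far lower level, 604 to 1241 CPM. It can share reads with the members and is no independent view of them, so it too is described with no test. It stood at 1138 and 1077 CPM in zdna1_CL against 851 and 696 CPM in zdna1_CC, a log2 difference of 0.52 (SE 0.147). In zdna4 it stood at 627 and 906 CPM in CL and 1241 and 1109 CPM in CC, a log2 difference of -0.63 (SE 0.238). The arms did not overlap in either genotype. Its differences were 0.18 in zdna2 and -0.26 in zdna3.

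Across the 8 groups the mean level of RN7SL1 was highest in zdna1_CL (10106 ± 406 CPM, SD, n = 2), followed by zdna3_CC (8831 ± 1318) and zdna4_CC (8172 ± 388). Those CC groups overlapped. Then came zdna4_CL (7263 ± 552), zdna3_CL (6141 ± 203), zdna2_CL (5258 ± 150), zdna1_CC (4617 ± 172) and zdna2_CC (3733 ± 320), and the libraries of each of these neighbours stood apart. RN7SL2 had another order, led by zdna3_CC (10595 ± 710 CPM) and then zdna3_CL (9327 ± 630), which overlapped zdna1_CL (8810 ± 459). The libraries of zdna4_CL (6483 ± 481) overlapped those of zdna1_CC (6447 ± 52.2), and those of zdna4_CC (5928 ± 279) overlapped those of zdna2_CL (5820 ± 343). The lowest was again zdna2_CC, at 5265 ± 171 CPM. Over the 4 libraries of a genotype, zdna2 was lowest for both, with means of 4495 ± 904 CPM of RN7SL1 and 5542 ± 390 CPM of RN7SL2. Among all 28207 genes, RN7SL2 ranked 3 and RN7SL1 ranked 4 by mean CPM, and 2 and 3 by CPM per kb of exon. The 3 copies together took 1.99% and 2.00% of human-gene reads in zdna1_CL against 1.19% and 1.22% in zdna1_CC, and 1.62% and 1.54% in zdna3_CL against 1.92% and 2.16% in zdna3_CC.

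The balance between the 2 RNA genes was read within each library, where no scaling enters. In zdna1 the reads of RN7SL1 over those of RN7SL2 gave ratios of 1.07 and 1.22 in CL against 0.701 and 0.731 in CC. The 95% exact binomial intervals, which cover counting error only, ran from 0.996 to 1.16 and from 1.14 to 1.32 in CL, against 0.625 to 0.787 and 0.668 to 0.800 in CC, and did not meet. RN7SL1 thus had the larger count in zdna1_CL and RN7SL2 the larger in zdna1_CC. In zdna2 the ratios were 0.924 and 0.885 in CL and 0.770 and 0.651 in CC. The order of the arms was the same, although the interval of 1 CC library (0.683 to 0.868) met those of both CL libraries. In zdna3 they were 0.643 and 0.675 in CL and 0.783 and 0.880 in CC. In zdna4 they were 1.12 and 1.12 in CL and 1.38 and 1.38 in CC. In these genotypes both CL libraries lay below both CC libraries, and the intervals met for at least 1 pair of libraries. As a log2 difference of CL over CC the ratio moved by 0.68 in zdna1, 0.35 in zdna2, -0.33 in zdna3 and -0.30 in zdna4. RN7SL1 exceeded RN7SL2 in zdna1_CL and in both arms of zdna4, and in none of the other groups. The share of RN7SL3 among the 3 copies was 4.60% and 5.89% in zdna4_CL against 7.85% and 7.53% in zdna4_CC. It was 4.68% to 7.24% in the other 12 libraries. The genes were chosen with the RN7SL1 values known, so the ratios carry no test.

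**Figure D2:**
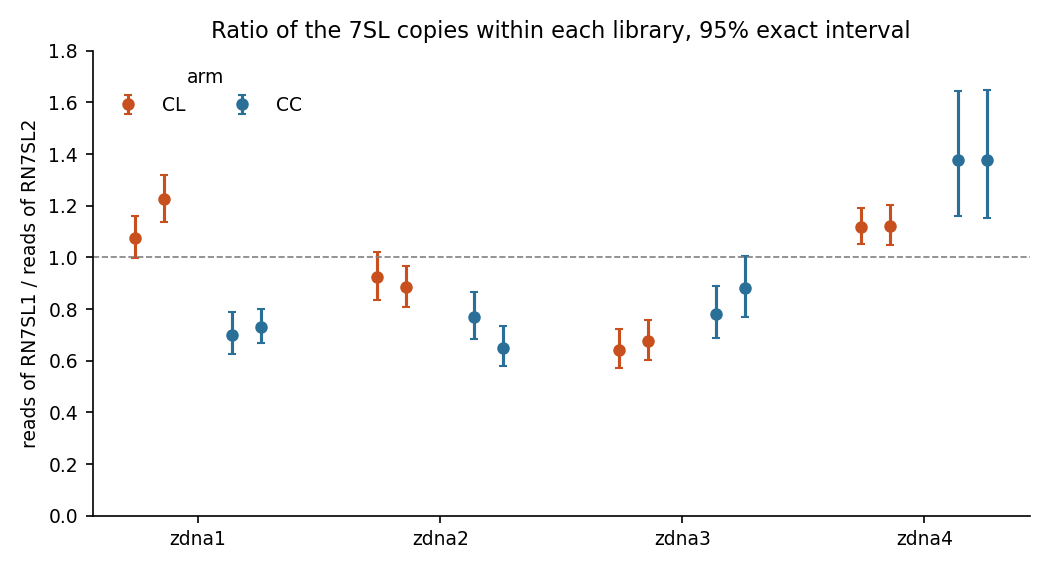
Reads of RN7SL1 divided by reads of RN7SL2 in each library (vertical axis, from 0) by genotype, CL left of CC, with 95% exact intervals for counting error and a dashed line at 1. The ratio lay at 1.07 and 1.22 in zdna1_CL above 0.701 and 0.731 in zdna1_CC, and at 1.12 in both zdna4_CL libraries below 1.38 in both zdna4_CC libraries.

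On the scale of the deposited values RN7SL1 in zdna3 and zdna4 and RN7SL2 in zdna3 were higher in CL than in CC, where the TMM scale had them lower. RN7SL1 then had 88.6 and 83.6 units in zdna3_CL against 63.5 and 76.0 in zdna3_CC, and its log2 difference was 0.31 in place of -0.52. The median difference of all genes tested in zdna3 was 0.72 on that scale, against 0.06 on the TMM scale. Relative to 0.72, RN7SL1 lay at -0.41 and RN7SL2 at -0.08. The scales differ by 1 constant per library, which subtracting the median largely removes. Relative values therefore cannot decide between the scales. In zdna4 the median was 0.43, RN7SL1 became 0.21 (relative to the median, -0.23) and RN7SL2 0.51 (relative, 0.07). In zdna1 and zdna2 the directions kept on every scale tried, and the relative values of RN7SL1 on the deposited scale were 1.14 and 0.50.

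The 6 SRP protein mRNAs were all detected, at far lower counts. SRP14, which with SRP9 forms the dimer on the Alu domain, had 3 to 74 reads per library, and SRP9 had 1 to 26. SRP19, which prepares 7SL RNA for SRP54, had 1 to 27 reads. SRP54, the GTPase that binds the signal sequence, had 1 to 23. SRP68 and SRP72, which form a dimer on the S domain, had 1 to 38 and 12 to 101. Per kb of exon SRP14 was the highest, with a mean over libraries of 177 CPM per kb, followed by SRP72 (93.6), SRP68 (50.8), SRP9 (48.8), SRP54 (30.9) and SRP19 (7.05, over an annotated exon length of 9676 bases). RN7SL1 and RN7SL2 stood at 22626 and 24529 CPM per kb. EIF2AK4 and SRP14-AS1 lie near SRP14 on the other strand, the nearer of them at 99 bases. SRP54-AS1 lies 332 bases from SRP54 on the other strand. The span of REEP5, also on the other strand, overlaps that of SRP19 but none of its exons. The counting used no strand, but no member shares an exon with another annotated gene.

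**Figure D3:**
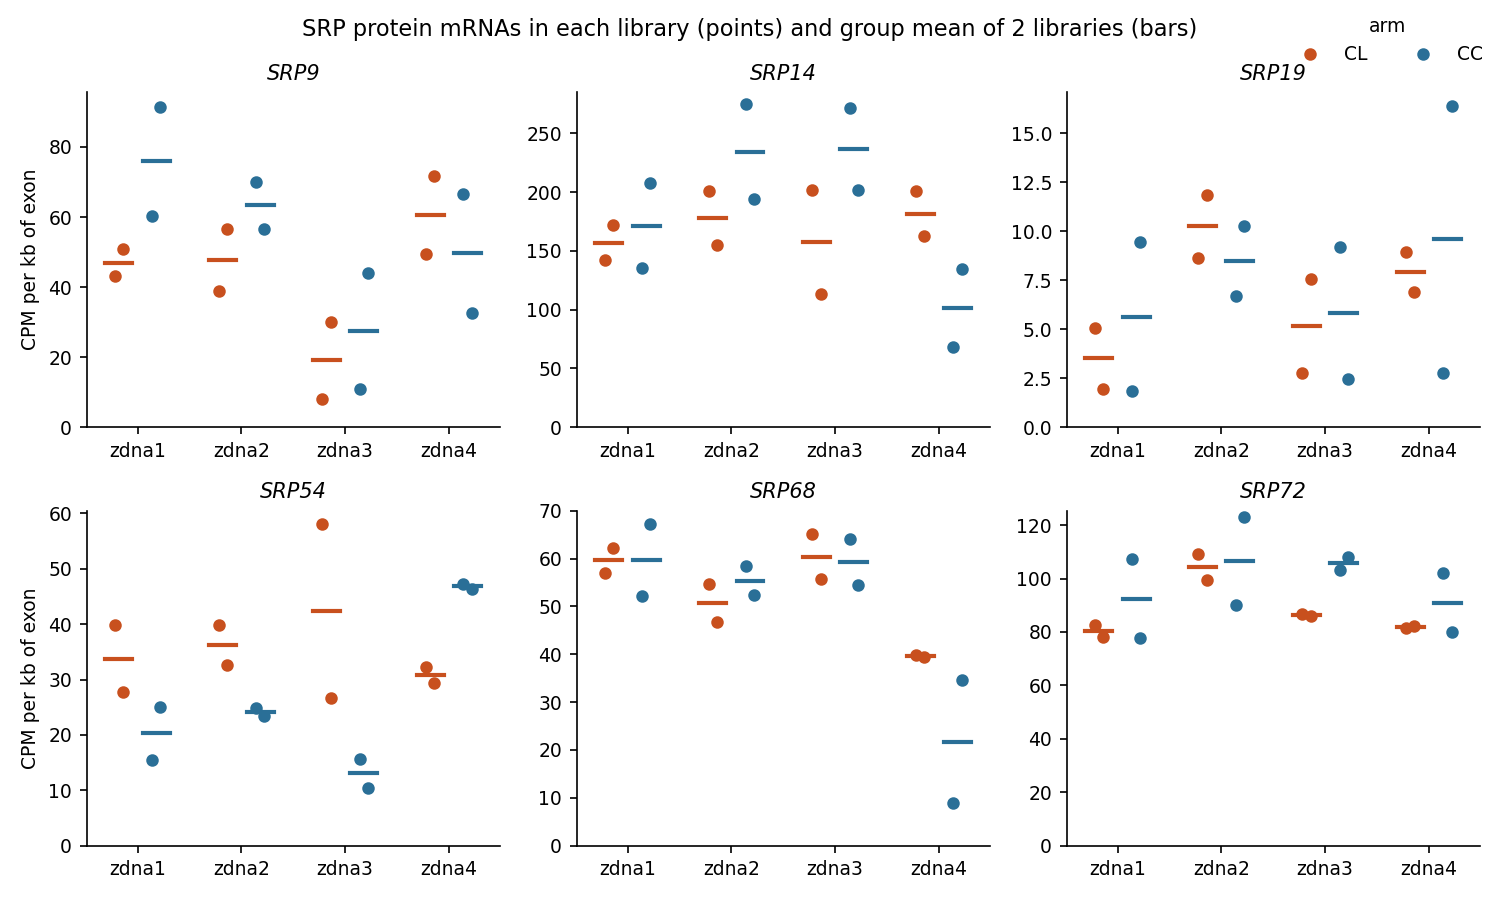
Level of the 6 SRP protein mRNAs in CPM per kb of exon (vertical axes, from 0, different ranges) by genotype, CL left of CC. Points are libraries and bars are means of 2 libraries; most neighbouring groups overlap, and SRP68 is lowest in zdna4_CC.

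None of the 6 protein genes passed limma in any arm comparison (Benjamini-Hochberg adjustment over all 4632 genes that averaged 50 CPM or more, a filter all 6 passed). At an unadjusted p under 0.05 there were 0 in zdna1, 0 in zdna2, 1 in zdna3, 2 in zdna4 and 0 in the mean over genotypes. edgeR called 0 in each comparison, and DESeq2 called 0 of the 2 to 6 to which it gave an adjusted p. Over all genes limma called 0.497% as higher and 0.259% as lower in zdna1, and 0.0864% in each direction in zdna2. It called 0.0216% as higher and 0.0648% as lower in zdna3, 0.907% and 0.259% in zdna4, and 0.345% and 0.0864% in the mean over genotypes. An unadjusted p under 0.05 was reached by 10.6%, 6.58%, 6.56%, 10.4% and 9.28% of genes in zdna1, zdna2, zdna3, zdna4 and the mean. The same order gives 0.993%, 0.194%, 0.0864%, 1.17% and 0.475% called by edgeR, and 1.22%, 0.0648%, 0.0864%, 2.14% and 1.35% called by DESeq2. The DESeq2 shares are of the genes to which it gave an adjusted p, 1309, 4632, 4632, 1309 and 1040 in that order. So no call among 6 genes is what these low shares give. Arms of 2 libraries did not overlap for 2, 2, 2 and 3 of the 6 in zdna1, zdna2, zdna3 and zdna4, against 41.8%, 35.0%, 34.0% and 44.2% of all genes.

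SRP54 was the protein gene with the largest arm difference. It had 13 and 10 reads in zdna1_CL against 4 and 10 in zdna1_CC, which is 90.8 and 63.4 CPM against 35.5 and 57.0 CPM. It had 90.8 and 74.4 CPM in zdna2_CL against 56.8 and 53.5 CPM in zdna2_CC. In zdna3 it had 133 and 60.8 CPM in CL, from 10 and 5 reads, against 35.7 and 23.8 CPM in CC, from 2 reads and 1 read. CL libraries lay above CC libraries in these genotypes. In zdna4 they lay below, at 73.6 and 67.0 CPM in CL against 108 and 106 CPM in CC, where each value rests on 4 reads. The log2 difference in zdna3 was 1.36 (SE 0.664, 95% interval 0.03 to 2.68, limma adjusted p = 0.739), and over the 4 genotypes it was 0.49 (SE 0.276, adjusted p = 0.596). On the deposited scale limma called it in zdna3 (1.62, adjusted p = 0.0241) and in the mean (0.69, adjusted p = 0.0494). On that scale, however, limma called 1049 of 4632 genes in zdna3, all higher, at a median difference of 0.72. In the mean it called 1019 genes, at a median of 0.34.

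In zdna4, SRP14 had 237 and 192 CPM in CL, from 74 and 43 reads, against 81.0 and 159 CPM in CC, from 3 and 6 reads. Its log2 difference was 0.85 (SE 0.422, 95% interval 0.01 to 1.70, limma adjusted p = 0.473). With TMM over every row and the contig it was 1.16 (limma adjusted p = 0.0457), but there 348 genes were called in zdna4, at a median difference of 0.41. SRP68 had 122 and 121 CPM in zdna4_CL against 26.98 and 106 CPM in zdna4_CC, the lower of these from 1 read. Its log2 difference was 1.00 (SE 0.461, 95% interval 0.08 to 1.93, limma adjusted p = 0.404). Both genes stood higher in each CL library of zdna4 than in either CC library, at counts under 10 reads in CC. In the other genotypes the differences of SRP14 were -0.10, -0.37 and -0.60, and those of SRP68 were 0.01, -0.12 and 0.02, with overlapping arms.

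SRP72, the deepest of the 6, gave the tightest intervals. It had 328 and 311 CPM in zdna1_CL against 426 and 308 CPM in zdna1_CC, and 433 and 395 CPM in zdna2_CL against 357 and 489 CPM in zdna2_CC. It had 345 and 341 CPM in zdna3_CL against 410 and 429 CPM in zdna3_CC, and 323 and 326 CPM in zdna4_CL against 405 and 317 CPM in zdna4_CC. The arms overlapped except in zdna3. Its mean log2 difference was -0.15 with an interval of -0.41 to 0.10. In zdna1 alone the interval ran from -0.55 to 0.20, so a change of the size of RN7SL1 in zdna1 (1.13) lies outside it. SRP9 lay below CC in both CL libraries of zdna1 (69.8 and 82.4 CPM against 97.5 and 148 CPM) and of zdna2 (62.8 and 91.6 CPM against 114 and 91.7 CPM), with log2 differences of -0.60 and -0.38. SRP19 overlapped in every genotype, with differences of -0.36 to 0.26. For SRP9, SRP14, SRP19, SRP54 and SRP68 the intervals reached past 1 log2 unit in at least 1 genotype. Changes of that size are not excluded there. The intervals of SRP72 stayed within 1 log2 unit in every genotype.

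**Figure D4:**
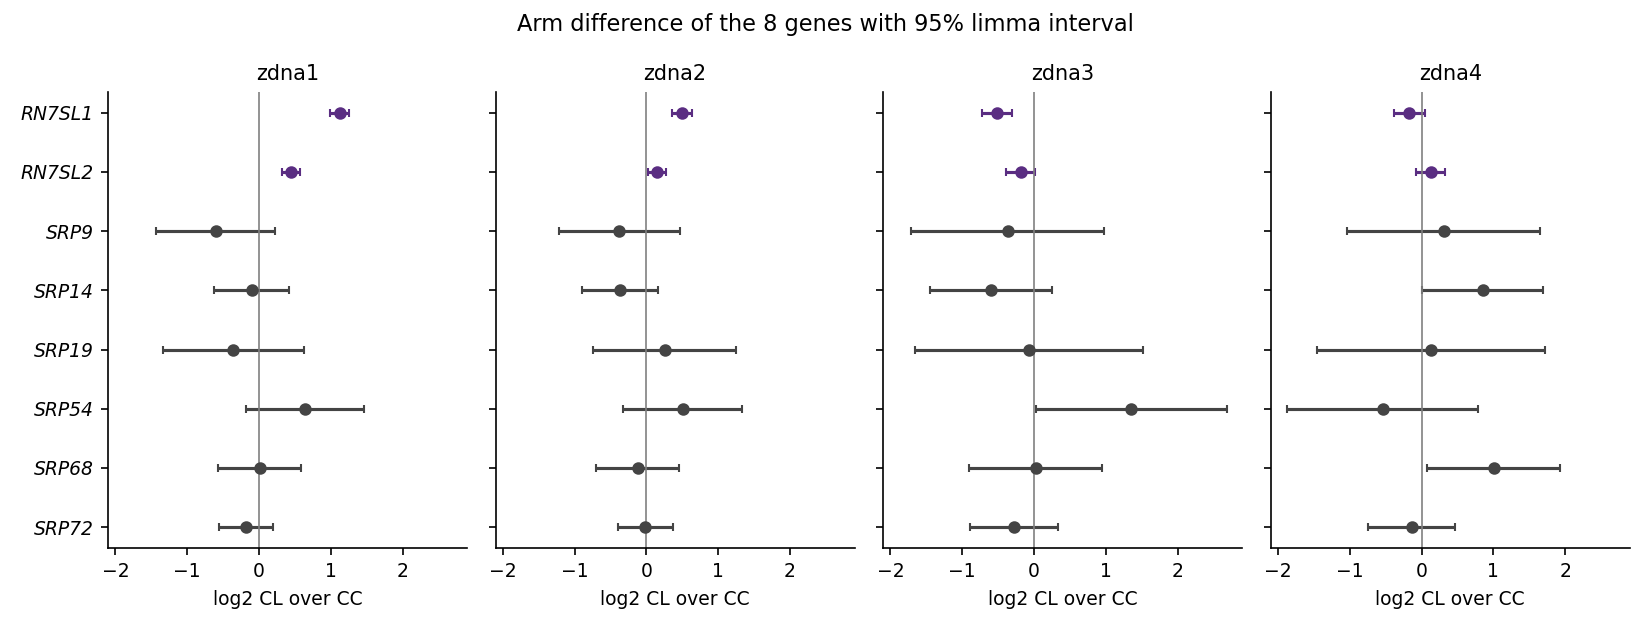
Log2 difference of CL over CC (horizontal axis) for the 8 genes in each genotype, with 95% limma intervals on log2 of CPM plus 10. The RNA genes have narrow intervals, with RN7SL1 at 1.13 in zdna1 and -0.52 in zdna3, and the intervals of most protein genes include 0.

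The sums over the 6 protein mRNAs ran from 756 CPM in replicate 1 of zdna4_CC, on 28 reads, to 1123 CPM in replicate 2 of zdna2_CC. They were 880 and 868 CPM in zdna1_CL against 895 and 1055 CPM in zdna1_CC. They were 955 and 827 CPM in zdna3_CL against 1070 and 953 CPM in zdna3_CC. The 3 RNA copies summed to 20091 and 19956 CPM in zdna1_CL against 11757 and 11919 CPM in zdna1_CC, and to 17051 and 15621 CPM in zdna3_CL against 19027 and 21884 CPM in zdna3_CC. In zdna1 the mean of CL over that of CC was 1.69 for the RNA and 0.896 for the protein mRNAs. In zdna2 it was 1.23 and 0.936, in zdna3 0.799 and 0.881, and in zdna4 0.950 and 1.09. The RNA sums did not overlap between arms in zdna1, zdna2 and zdna3. Of the tests that the arm difference varies with the genotype, limma and edgeR called 0 of the 6 protein genes and none had an unadjusted p under 0.05, against 0.864% and 1.23% of all genes called and 10.4% at that unadjusted p.

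Between genotypes, averaged over the arms, SRP68 was the 1 protein gene that passed limma (adjusted p = 0.0315), and 3 had an unadjusted p under 0.05. On the deposited scale, where the test called 4386 of 4632 genes, the other 5 protein genes passed as well. SRP68 averaged 93.7 ± 45.1 CPM in zdna4 against 182 ± 19.7 in zdna1, 162 ± 14.8 in zdna2 and 183 ± 16.9 in zdna3 (SD, n = 4 libraries each). Every zdna4 library, at 26.98 to 122 CPM, lay below every other library, at 143 CPM or more. In edgeR its adjusted p was 0.0784, and without replicate 1 of zdna4_CC, which held 1 read, limma's adjusted p was 0.491. It was 0.0518 to 0.0616 without replicate 2 of zdna4_CL, zdna1_CL or zdna1_CC. Of all genes, limma called 8.85%, edgeR called 10.6% and 24.3% had an unadjusted p under 0.05 in this comparison. SRP9 was lowest in zdna3 (37.8 ± 27.4 CPM, against 89.2 to 99.5 in the other genotypes) and did not pass (adjusted p = 0.0850). It passed with TMM over every row and the contig (0.0295) and without replicate 2 of zdna3_CL (0.0480), and SRP19 passed without replicate 2 of zdna1_CC (0.0277).

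No partner of the particle at the membrane was called on the TMM scale. Of 14 genes of the SRP receptor and the translocon in the files, 11 were tested. Limma, edgeR and DESeq2 called 0 in each arm comparison, with 0, 1, 1 and 0 at an unadjusted p under 0.05 in zdna1 to zdna4 and 3 in the mean. Of all genes, 10.6%, 6.58%, 6.56% and 10.4% reached that p in zdna1 to zdna4. In the mean 9.28% did, a smaller share than 3 of 11. Over all genes limma called 0.0216% to 0.907% in a direction, so 0 of 11 called is near the background. Their median log2 difference was 0.06, 0.16, 0.30 and 0.42 in zdna1 to zdna4, beside -0.00, -0.01, 0.06 and 0.08 for all genes. SEC61A1, the pore subunit, had 251 and 184 CPM in zdna1_CL against 239 and 262 CPM in zdna1_CC, and 202 and 223 CPM in zdna4_CL against 189 and 79.2 CPM in zdna4_CC. Its arms overlapped in zdna1 and stood apart narrowly in zdna4. SSR1, a translocon-associated subunit, gave log2 differences of 0.11 to 0.44 in zdna1, zdna2 and zdna4 and 0.08 in zdna3, none called. Of 16 genes of signal peptidase and oligosaccharyltransferase, 11 were tested and 0 called by any of the tools. At an unadjusted p under 0.05 there were 1, 2, 1 and 0 in zdna1 to zdna4, beside the same shares of all genes. Their most abundant member RPN2, an oligosaccharyltransferase subunit, had 279 and 266 CPM in zdna1_CL against 372 and 376 CPM in zdna1_CC (log2 difference -0.44, SE 0.188, limma adjusted p = 0.343). It also lay below CC in zdna2, at 272 and 263 CPM in CL against 357 and 374 CPM in CC (-0.44, adjusted p = 0.697). RPN1, its partner, gave -0.04 and 0.07 in the same genotypes. On the deposited scale, with its median of 0.72 in zdna3, limma called SEC61A1 (1.23, adjusted p = 0.00850), RPN2 (1.03, 0.00483) and RPN1 (1.16, 0.00812) higher there. In the mean, with a median of 0.34, it called SEC61A1 (0.66, 0.00434) and SSR1 (0.58, 0.0157).

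Among 10 genes for the nascent chain and for other targeting routes, 6 were tested and limma called 1. That call was in zdna4, where limma called 0.907% of all genes as higher. GET3, the ATPase that targets tail-anchored proteins, had 27 and 14 reads in zdna4_CL and 0 in both zdna4_CC libraries, where 3 reads over the group are worth 40.0 CPM. Its mean of 74.5 CPM in zdna4_CL was thus at least 1.86-fold higher (limma adjusted p = 0.0364; edgeR adjusted p = 0.120). The call was lost without either zdna4_CC library (adjusted p = 0.191 and 0.152) or without replicate 1 of zdna4_CL (0.0778). NACA and BTF3, the subunits of the nascent polypeptide-associated complex and the most abundant of the list, had log2 differences of -0.16 to 0.13 and -0.11 to 0.10, none called. On the deposited scale, where the median of all genes was 0.72, both were called higher in zdna3 (0.67 each).

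Other RNAs that RNA polymerase III makes were among the called genes. Of 20 such genes listed, 6 passed the filter, and that filter favours genes that are high in some group. The list was also chosen with earlier results of these data known. Its call shares and p-values, here and below, thus describe these libraries and are no independent test. Limma called 4 of the 6 higher in zdna1, 2 in zdna2, 0 in zdna3 and 1 in zdna4, against 0.497%, 0.0864%, 0.0216% and 0.907% of all genes. Of the 4, RNU6ATAC passed the filter only through zdna1_CL, where it was high, so its call is not read as a result. The 0 in zdna3 stood beside 1 at an unadjusted p under 0.05, 0 called by edgeR and 1 called by DESeq2. RMRP, the RNA of RNase MRP, had 5726 and 5374 CPM in zdna1_CL against 3360 and 3473 CPM in zdna1_CC (log2 difference 0.70, SE 0.0763, limma adjusted p = 1.78e-09). It had 3078 and 3315 CPM in zdna2_CL against 2353 and 2376 CPM in zdna2_CC (0.43, adjusted p = 0.000983). These arms stood well apart, and in zdna3 and zdna4 they overlapped, with differences of 0.07 and 0.10. On the deposited scale limma called RMRP in zdna3 (0.89, adjusted p = 4.24e-07), where the median of all genes was 0.72. With TMM over every row and the contig limma called it in zdna4 (0.50, adjusted p = 0.00524), where the median was 0.41. RPPH1, the RNA of RNase P, rose by 0.53 in zdna1 and 0.41 in zdna2 (adjusted p = 3.49e-07 and 0.000417). In zdna3 it had 3567 and 3698 CPM in CL against 4743 and 5024 CPM in CC, a difference of -0.43 that missed the threshold in limma (adjusted p = 0.178). It passed in DESeq2 (-0.46, adjusted p = 0.0487) and in limma on the 4 libraries of zdna3 alone (-0.44, adjusted p = 0.00975), and it turned to 0.40 on the deposited scale, below that scale's median of 0.72. In zdna4 it was 0.39 (limma adjusted p = 0.0641, edgeR adjusted p = 0.0313), where RN7SL1 was at -0.17.

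RN7SK, the RNA that holds the elongation factor P-TEFb, rose in zdna4, at 36469 and 37097 CPM in CL against 26715 and 26571 CPM in CC (log2 difference 0.47, SE 0.0606, limma adjusted p = 4.89e-07). In zdna1, zdna2 and zdna3 its differences were -0.07, 0.07 and -0.03, with overlapping arms, and the last was 0.79 on the deposited scale. The arm difference varied with the genotype for RN7SK (adjusted p = 6.93e-06), RPPH1 (1.05e-05), RMRP (0.00893) and RNA5S9 (0.0293). RNA5S9, a 5S ribosomal RNA gene with near-identical copies elsewhere, had 377 and 361 CPM in zdna1_CL against 160 and 148 CPM in zdna1_CC (1.21, adjusted p = 0.00931). In zdna2 and zdna3 it lay below CC in both CL libraries (-0.29 and -0.82), and in zdna4 the arms overlapped (0.63). RNY1, the remaining tested RNA of the list, was called by limma in no arm comparison. Its mean of CL over that of CC was 0.766, 0.943, 0.731 and 1.59 in zdna1 to zdna4. RNU6ATAC, the small nuclear RNA of the minor spliceosome, had 27 and 22 reads in zdna1_CL against 4 and 4 in zdna1_CC, a difference given with no test. The call of RNA5S9 in zdna1 was lost when the libraries were not weighted (adjusted p = 0.594), as were those of RMRP and RPPH1 in zdna2 (0.299 for each). Without any 1 of the 4 zdna1 libraries RNA5S9 lost its call (0.0662 to 0.145), and RMRP in zdna2 did so without replicate 2 of zdna2_CL (0.0542). In the mean over genotypes RMRP (0.33, adjusted p = 0.000185), RPPH1 (0.23, 0.00599) and RN7SK (0.11, 0.0309) passed. The call of RN7SK in the mean was lost in edgeR (0.160), in DESeq2 (0.114), with a pseudocount of 2 (0.136), without weights (0.0660), with no filter (0.519) and without any 1 of 8 libraries (0.0549 to 0.208). Its mean was -0.022 without zdna4, and without replicate 2 of zdna4_CC that of RPPH1 had an adjusted p of 0.127.

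**Figure D5:**
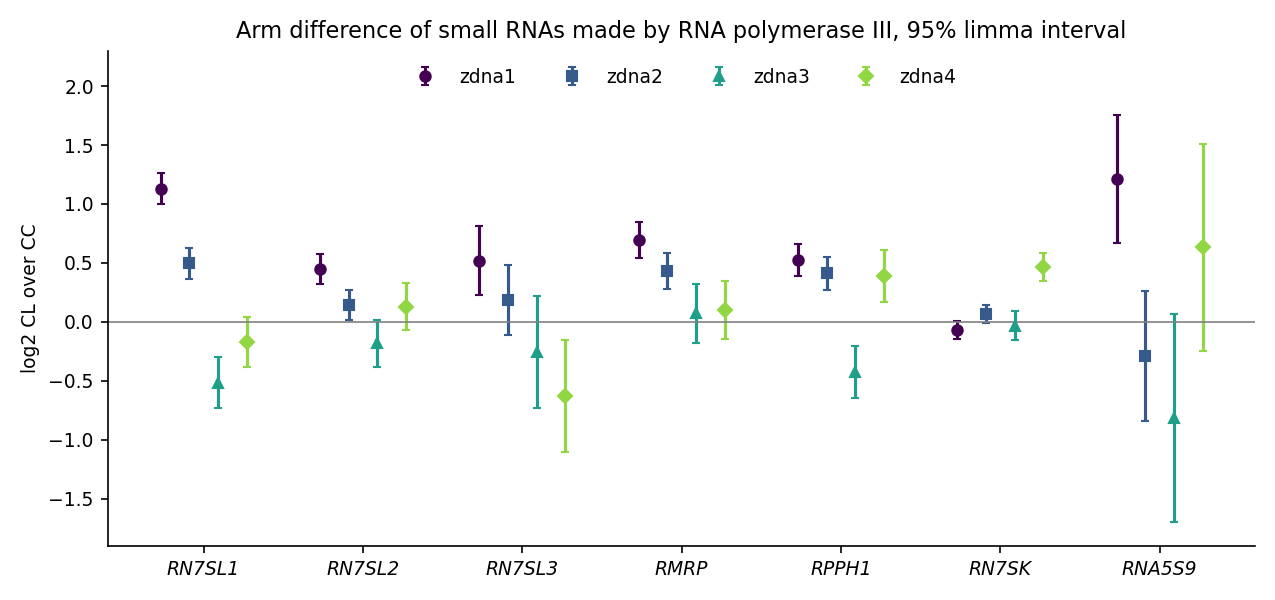
Log2 difference of CL over CC (vertical axis) for the 7SL copies and 4 other RNAs made by RNA polymerase III, with 95% limma intervals and 1 symbol per genotype. RN7SL1, RMRP and RPPH1 are above 0 in zdna1 and zdna2, and RN7SK is at 0.47 in zdna4.

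Of 32 genes for RNA polymerase III and its factors, 19 were tested. Limma called 1 as lower in zdna1 and in the mean, beside 0.259% and 0.0864% of all genes. SNAPC1, a subunit of the complex that binds the proximal element of small RNA promoters, fell in zdna1 and in the mean and was the 1 gene of the list called there. It had 244 and 171 CPM in zdna1_CL against 434 and 336 CPM in zdna1_CC (log2 difference -0.87, SE 0.203, limma adjusted p = 0.0141). In zdna4 it had 198 and 210 CPM in CL against 459 and 449 CPM in CC (-1.12, limma adjusted p = 0.0737, edgeR adjusted p = 0.0296). In zdna3 it had 451 and 255 CPM in CL against 571 and 524 CPM in CC (-0.67, limma adjusted p = 0.739). The arms stood apart in these genotypes and overlapped in zdna2, with a difference of 0.08. The call in zdna1 was lost without replicate 1 of zdna1_CC (adjusted p = 0.462) or replicate 2 of zdna1_CL (0.369), and on the deposited scale (0.124), in DESeq2 (0.162), without weights (0.562) and with no filter (0.3205). The mean lost its call on the deposited scale (0.0934), with no filter (0.398) and without zdna4 (0.336). It also did so without replicate 2 of zdna2_CC (0.0535), replicate 2 of zdna3_CL (0.0848), or replicate 1 or 2 of zdna4_CC (0.0744 and 0.0544). BDP1, a subunit of the factor TFIIIB, had 147 and 184 CPM in zdna1_CL against 284 and 291 CPM in zdna1_CC (-0.77, adjusted p = 0.157). At an unadjusted p under 0.05 there were 6, 0, 3 and 2 of the 19 in zdna1 to zdna4, against 10.6%, 6.58%, 6.56% and 10.4% of all genes. Their median log2 difference was -0.01, 0.03, 0.01 and -0.10.

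The genes whose 8 group means ran most like those of RN7SL1 were sought among 918 genes averaging 200 CPM or more, on log2 of CPM plus 10. The closest were RPL10, a ribosomal protein (Pearson r = 0.960), CLSTN1, a calsyntenin (0.938), SFN, a 14-3-3 protein (0.925), MYO1C, an unconventional myosin (0.909), and RN7SL3 (0.878). RMRP came next by rank, at place 6 (0.875). RN7SL2 ranked 38, with r = 0.635, RPPH1 33 and RN7SK 379. SRP14 and SRP72 ranked 659 and 755, with r of -0.35 and -0.48. The most opposite were TARS1, a threonyl-tRNA synthetase (-0.92), RPL5, a ribosomal protein (-0.90), TOP1, DNA topoisomerase I (-0.89), RPL6, a ribosomal protein (-0.87), and ZFR, a zinc finger RNA-binding protein (-0.86). The means share their libraries and scaling, 8 points are few, and the best of 918 are high by selection, so this is a description. RPL10 had 545 and 558 CPM in zdna1_CL against 346 and 399 CPM in zdna1_CC, and TARS1 had 342 and 374 CPM against 656 and 639 CPM.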

How the data were processed

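Total RNA of 16 U2OS libraries was analysed, 2 per group; groups came from the genotype label. Per the submitters' processing notes the authors used Trim Galore 0.6.6, STAR and bedtools 2.29.2, with hg19 and dm6 named. Per the file headers, featureCounts 2.0.1 counted paired reads over exons on hg19 plus the contig, with no strand option. The deposited values are a scaled signal per gene, 1 constant per library, whose origin is not given in the sources used here. Whole reads were recovered by dividing by each library's smallest step (at least 99.99% of nonzero values whole within 0.1 read). This differs from the whole counts the plan assumed.

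The main test, limma 3.58.1, took log2(CPM + 10), TMM factors from edgeR 4.0.16 over the 4632 genes averaging 50 CPM or more, 8 group means, group weights, a variance trend and two-sided Benjamini-Hochberg adjustment at 0.05. edgeR's quasi-likelihood test and DESeq2 1.42.0 on recovered reads were alternatives, with other scalings, pseudocounts and filters, and each library left out. Steps were tested on simulated data. Intervals for read ratios are exact (scipy) and cover counting error only. Libraries held 39335 to 310187 human-gene reads. Replicates of zdna2_CC, zdna3_CC and zdna3_CL did not differ beyond sampling noise over genes (chi-square p = 0.378, 0.679 and 0.0739), but the contig's share differed in all 8 pairs, so each was kept as 2 libraries. Members and gene lists were chosen with earlier results of these data known. Named genes are the members, called list genes (at most 4 per comparison), the 2 most abundant per list, and the 5 most and 5 least like RN7SL1. RNY1 is named too. The sequences of the 7SL copies are not reported here.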

Additional observations from a re-analysis of the deposited data

Results flagged for a closer look

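On the TMM scale RN7SL1 lay in opposite directions between genotypes, since both CL libraries lay above both CC libraries in zdna1 and zdna2 and below them in zdna3 and zdna4. On the deposited scale it was higher in CL in all 4 genotypes (0.31 in zdna3 and 0.21 in zdna4), with TMM over every row and the contig it was 0.23 in zdna4, and on the TMM scale its zdna4 interval of -0.38 to 0.04 includes 0. The log2 difference of CL over CC was lower in zdna3 than in zdna1 by -1.64 and lower in zdna4 than in zdna1 by -1.30. It was lower in zdna3 than in zdna2 by -1.01 and in zdna4 than in zdna2 by -0.67. For RN7SL2 it was lower in zdna3 than in zdna1 (-0.63) and zdna2 (-0.33), and higher in zdna4 than in zdna3 (0.31). The RN7SL2 intervals on the TMM scale, -0.39 to 0.02 in zdna3 and -0.07 to 0.33 in zdna4, include 0. On the deposited scale RN7SL2 was 0.64 in zdna3, and there it was higher in CL in all 4 genotypes. SRP54, on at most 23 reads per library, lay higher in CL in zdna1, zdna2 and zdna3 and lower in zdna4, by -1.18, -1.04 and -1.897 in zdna4 relative to these. None of these differences was tested here for the RNA genes, and for SRP54 the test over all 4 genotypes gave a limma adjusted p of 0.717.

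The arm difference varied with the genotype by limma's test for RN7SK (adjusted p = 6.93e-06), RPPH1 (1.05e-05), RMRP (0.00893) and RNA5S9 (0.0293). Without zdna4 the adjusted p of RN7SK was 0.531. For RMRP and RPPH1 it was 0.0894 and 0.241 on the deposited scale. With no filter it was 0.279 for each of RN7SK, RMRP and RNA5S9. With TMM over every row and the contig it was 0.172 for RMRP. Without array weights it was 0.0591 for RMRP and 0.219 for RNA5S9, and with a pseudocount of 2 it was 0.0693 for RNA5S9. For RMRP it was 0.0542 and 0.0598 without replicate 1 of zdna1_CC or zdna1_CL, and for RNA5S9 10 of the 16 libraries, left out singly, ended the call (0.0567 to 0.130).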

How the results depend on the processing

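Over all alternatives the differences of RN7SL1 and RN7SL2 in zdna1, zdna2 and the mean over genotypes kept their sign. RN7SL1 in zdna3 turned to 0.31 on the deposited scale, where the other log2 differences were 1.29 (RN7SL1, zdna1), 0.61 (RN7SL2, zdna1), 0.64 (RN7SL2, zdna3), 0.21 and 0.51 (both in zdna4), and 0.58 and 0.48 (the mean). There 5, 1049, 212 and 1019 genes were called in zdna2, zdna3, zdna4 and the mean, 337 for an arm difference that varies with the genotype and 4386 among genotypes; of the SRP proteins 1 was called in zdna3 and 2 in the mean. Signs also turned there for RN7SL3 (0.55), RN7SK (0.79), RPPH1 (0.40), NACA (0.67) and BTF3 (0.67) in zdna3 and for RN7SL3 in the mean (0.30). With TMM over every row and the contig, RN7SL2 was -0.10 in zdna3, RN7SL1 and RN7SL2 were 0.23 and 0.53 in zdna4 and 0.36 and 0.26 in the mean, and 348, 118, 137 and 685 genes were called in zdna4, the mean, the difference among genotypes and among genotypes, with 1 SRP protein in zdna4. Library totals gave RN7SL2 0.23 in zdna4, and fitting the 4 libraries of zdna4 alone gave 0.21 and 17 genes. The summed reads of RN7SL1 and RN7SL2 gave 0.77, 0.31, -0.35 and 0.0022 in zdna1 to zdna4. Genes called were 22 in zdna4 and 10 in the mean with a pseudocount of 2. With no filter they were 0 in zdna3, 92 in zdna4, 0 in the mean, 7 for the varying arm difference and 87 among genotypes. DESeq2 called 16, 3 and 28 in zdna1, zdna2 and zdna4. Without array weights 10, 0, 8, 122 and 13 were called in zdna1 to zdna4 and the mean. Without zdna4 the mean of RN7SL1 was 0.36, that of RN7SK turned to -0.022, and 5 and 21 genes were called in the mean and for the varying arm difference. Against these the main counts were 35, 8, 4, 54 and 20 in zdna1 to zdna4 and the mean, 40 for the varying arm difference and 410 among genotypes. Leaving out each library in turn gave 10 to 45 genes in zdna1, 4 to 10 in zdna2, 0 to 33 in zdna3 (33 without replicate 1 of zdna3_CC), 31 to 47 in zdna4, 10 to 27 in the mean, 25 to 50 for the varying arm difference and 292 to 397 among genotypes. It gave RN7SL1 -0.68 to -0.40 in zdna3, RN7SL2 -0.26 to -0.12 in zdna3 and 0.075 to 0.22 in zdna4. The cause of these changes was not tested. A fit with a replicate block called 34, 7, 3, 47 and 17 genes in zdna1 to zdna4 and the mean, gave RN7SL1 1.13 in zdna1, and ended the call of RN7SK in the mean (adjusted p = 0.0659) and no other call among the named genes; the 28 correlations between replicate deviations, -0.02 to 0.04, gave no sign of pairing. Depth limits the SRP proteins, at 1 to 101 reads per library.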
